A study of Mus musculus with 16 samples.

Results

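The cytosolic ribosomal protein genes were described across 16 mouse melanoma tumours. Members were taken by name: the Rpl and Rps genes followed by a number, Rplp0 to Rplp2 and Rpsa, without the Rps6k kinases and without names ending in -ps and a number. The rule found 93 of the 16094 genes in the table, 54 of the large and 39 of the small subunit. Of these, 77 were core genes (46 large, 31 small) and 16 were paralogues, retrogene copies or other names. One of the 16, Rps19bp1, encodes a protein that binds a ribosomal protein and is not itself one. Fau, which encodes a ribosomal protein fused to a ubiquitin-like protein, carries another name and is given beside the members. Left out were 90 rows with a -ps name and 9 Rps6k rows.

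The ribosome is the machine that reads messenger RNA into protein. Its small subunit decodes the message, and its large subunit joins the amino acids. Each core protein is present once per ribosome, apart from the stalk proteins, so the genes are made in balance. Their messages start with a run of pyrimidines (C or T), the 5′ terminal oligopyrimidine (TOP) motif, through which mTOR signalling adjusts their translation. MYC raises the transcription of many of them, and growing tumours hold large numbers of ribosomes.

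All tumours grew in mice from B16R2L, a mouse melanoma line. The cells carried a non-targeting hairpin (shCtrl) or hairpin shMdk-5 against Mdk, which encodes midkine, a secreted growth factor. Each line carries 1 hairpin, so the loss of Mdk and any other difference between the lines cannot be told apart. From 100 mm3 on, the mice received IgG2a control antibody or anti-PD1 (clone RMP1-14, 10 mg/kg per the labels), 2 doses a week for 2 weeks. The groups, of 4 tumours each, were shCtrl IgG2a, shCtrl anti-PD1, shMdk IgG2a and shMdk anti-PD1. The tumour numbers used here follow the order of deposition and pair nothing. The labels give neither the strain nor the age of the mice.

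The libraries held 5686405 to 8886334 reads. Mdk was lower in shMdk than in shCtrl tumours by 2.16 ± 0.36 under IgG2a and 2.17 ± 0.36 under anti-PD1 on the log2 scale (SE; limma adjusted p = 0.00428 and 0.00166). A positive slope of level on the GC content of 3′ ends set 5 libraries apart: shCtrl IgG2a 1 and 2, shMdk IgG2a 3 and 4, and shMdk anti-PD1 1. Over all genes the slope was 0.09 to 0.20 log2 units per 10% GC there and -0.12 to -0.01 in the other 11. Reads of Gm42418, whose model overlaps ribosomal RNA, were 4.47% of the total in shCtrl anti-PD1 2, 3.17% in shMdk IgG2a 1 and 0.880% to 1.56% elsewhere. Haemoglobin genes took 6.70% of reads in shCtrl anti-PD1 2 and 0.0469% to 1.47% elsewhere. The defining melanocyte markers were present in every group, with a summed level of 114270 to 192475 normalised reads.

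The start sites of 8 member genes are shown because the pyrimidine run at the start is the sequence these genes are known to share. Each line gives 30 bases around the gene start, 15 on either side, on the strand of the gene, with the longest run of C or T in capitals (RefSeq, GRCm38.p6). Rpl28 and Rps9 are the members that passed the test below. Rps6, Rpl13a and Rplp2 show the run in other members, Rpl41 shows a window with no long run, and Rpl7a and Rpl10 were low in the 5 libraries named above.
Rpl28 (chr7:4792950-4792979, plus strand): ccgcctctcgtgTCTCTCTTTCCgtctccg
Rps9 (chr7:3704026-3704055, plus strand): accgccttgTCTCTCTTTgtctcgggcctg
Rps6 (chr4:86857353-86857382, minus strand): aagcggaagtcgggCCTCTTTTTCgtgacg
Rpl13a (chr7:45128731-45128760, minus strand): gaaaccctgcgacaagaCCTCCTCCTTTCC
Rplp2 (chr7:141447636-141447665, plus strand): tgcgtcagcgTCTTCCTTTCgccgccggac
Rpl7a (chr2:26910792-26910821, plus strand): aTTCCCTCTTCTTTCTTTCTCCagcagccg
Rpl10 (chrX:74270801-74270830, plus strand): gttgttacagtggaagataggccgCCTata
Rpl41 (chr10:128549154-128549183, minus strand): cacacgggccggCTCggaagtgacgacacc
The longest run had 11 bases in Rpl28, 9 in Rps9 and 21 in Rpl7a, and 3 in Rpl10 and Rpl41. A run of 8 or more C or T bases on the gene's strand was found in 28 of the 67 members with a window (41.8%) and in 25 of 57 core members (43.9%). Of 27025 genes with a window, 13.9% held one. A window without a run says only that these letters are not within 15 bases of the annotated start.

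The members made up 8.79% to 13.2% of all reads. Reads come from the 3′ ends of transcripts, so gene length does not scale them, but 3′ ends differ in how well they are primed and annotated, and the order below is one of reads. Rplp1, a protein of the large-subunit stalk that recruits translation factors, had the highest mean of the large subunit genes (34679 normalised reads; lowest 23625, median 34449, highest 49981). Rpl37 and Rpl27a followed at 25608 and 22437. Of the small subunit genes, Rps14 was highest at 32842 (19990, 31904 and 58899), followed by Rps29 at 23609 and Rps12 at 21692. The mean was at least 1000 in 79 of the 93 members and in 76 of the 77 core genes, and 34 members were among the 100 highest genes of the table. The core gene with the lowest mean was Rpl10 at 798.

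The copies contributed 0.102% to 0.145% of reads, and the -ps rows left out contributed 0.0572% to 0.111%. Rpl39l, Rpl3l and Rpl6l were the least abundant large subunit members, with means of 5.38, 22.7 and 25.7 normalised reads. Rps3a2, Rps4l and Rps3a3 were the least abundant of the small subunit, with 11.8, 14.0 and 14.3. Reads from near-identical copies can be assigned to either copy. These low values and those of the parents are therefore uncertain, by an amount that was not measured. Among the -ps rows left out, Rpl36-ps12 had a mean of 3178 normalised reads, against 8593 for Rpl36. A few paralogues were abundant: Rpl36al took 47.6% to 57.0% of the reads of the Rpl36a pair, Rps27l 23.3% to 36.8% of the Rps27 pair, and Rpl22l1 7.25% to 29.7% of the Rpl22 pair. Rpl7l1 took 3.35% to 5.51% of the Rpl7 pair. The Rpl22l1 share had group means of 18.5 ± 7.55% in shCtrl IgG2a, 26.3 ± 3.97% in shCtrl anti-PD1, 17.9 ± 7.33% in shMdk IgG2a and 25.7 ± 3.69% in shMdk anti-PD1 tumours (SD, n = 4). In the IgG2a groups the low values were those of libraries with a positive GC slope, at 8.63% and 16.6% in shCtrl IgG2a 1 and 2 against 24.4% in both other tumours, and 18.95% and 7.25% in shMdk IgG2a 3 and 4 against 23.3% and 22.1%. Rpl3l, Rps4l, Rpl39l and Rps27rt each took under 2% of the pair with their parent, with highest shares of 0.293%, 0.281%, 0.308% and 1.92%.

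The share of reads in ribosomal protein genes was lowest in shMdk anti-PD1 tumours. For shCtrl IgG2a tumours 1 to 4 the shares were 11.9%, 13.2%, 10.5% and 10.6%, and for shCtrl anti-PD1 10.6%, 9.65%, 10.5% and 11.3%. For shMdk IgG2a they were 10.2%, 11.1%, 10.7% and 11.4%, and for shMdk anti-PD1 10.04%, 8.79%, 9.75% and 9.65%. The shMdk anti-PD1 values lay below every shMdk IgG2a and every shCtrl IgG2a value, and overlapped those of shCtrl anti-PD1 through its tumour 2, the library with much haemoglobin. Group means were 11.6 ± 1.28%, 10.5 ± 0.661%, 10.9 ± 0.524% and 9.56 ± 0.539% (SD, n = 4) in the order above. With haemoglobin genes taken out of the total, the means were 11.7%, 10.7%, 10.9% and 9.58%, and shCtrl anti-PD1 2 stood at 10.3%, above the highest shMdk anti-PD1 value of 10.1%. No test was made of this sum over genes that were chosen with results known.

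**Figure D1:**
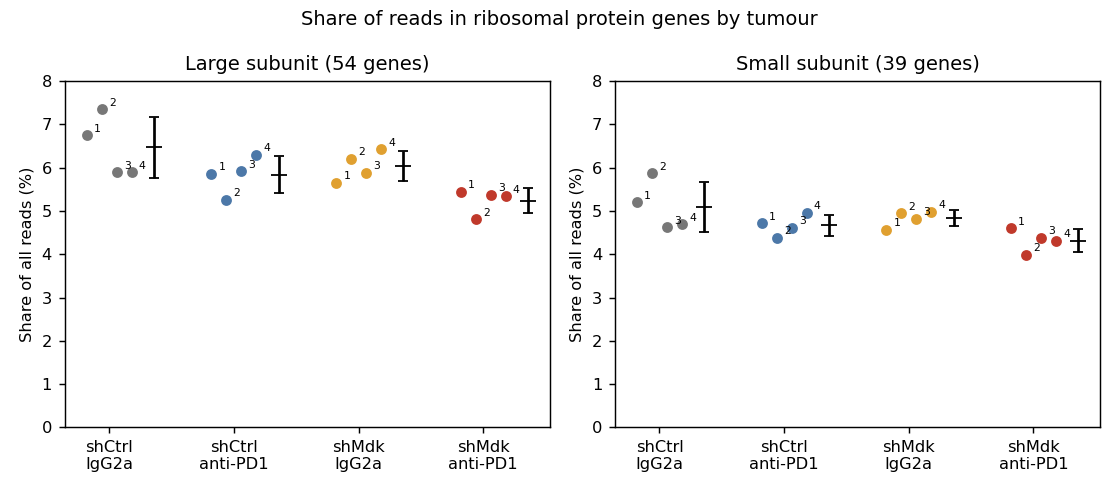
Share of all reads (%, vertical axis from 0) in large (left) and small (right) subunit genes, by group. Points are single tumours labelled by number, bars are the mean ± SD of 4 tumours, and the shMdk anti-PD1 means, 5.24% and 4.32%, are the lowest in both panels.

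Both subunits had the same order of group means. The large subunit genes took 6.47 ± 0.707%, 5.83 ± 0.426%, 6.04 ± 0.345% and 5.24 ± 0.293% of reads in shCtrl IgG2a, shCtrl anti-PD1, shMdk IgG2a and shMdk anti-PD1 tumours. The small subunit genes took 5.09 ± 0.574%, 4.67 ± 0.240%, 4.83 ± 0.187% and 4.32 ± 0.255%. The ratio of large to small subunit reads ran from 1.18 to 1.30 over the tumours, with group means of 1.27, 1.25, 1.25 and 1.21. Ranked by mean, shCtrl IgG2a came first, then shMdk IgG2a, shCtrl anti-PD1 and shMdk anti-PD1. Neighbours in this ranking differed by less than the sum of their SDs in both subunits. The means of shMdk IgG2a and shMdk anti-PD1 differed by more than that sum in both. Those of shCtrl IgG2a and shMdk anti-PD1, first and last in rank, did so in the large subunit only. These comparisons with SDs are no test.

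Markers of other cell types differed between the same groups. Of 20 leukocyte markers 16 rose in shMdk against shCtrl tumours under anti-PD1 and 8 under IgG2a, and 4 of the 20 were at 0 in some tumour. Of all genes, 4.93% were called higher under anti-PD1 and 1.63% under IgG2a. The summed level of the leukocyte markers ran from 1521 to 2229 normalised reads in shCtrl IgG2a and 1374 to 3234 in shCtrl anti-PD1 tumours. It ran from 3474 to 6459 in shMdk IgG2a and 6065 to 12658 in shMdk anti-PD1 tumours. Under anti-PD1, 3 of 5 fibroblast markers and 3 of 4 endothelial markers rose, while 0 of 10 melanocyte markers and 0 of 5 erythroid markers passed the test. Under IgG2a 0 fibroblast, endothelial, melanocyte or erythroid markers passed. All 5 erythroid markers were lower by value under either antibody. The summed fibroblast level overlapped, at 413 to 2371 in shCtrl and 1488 to 13211 in shMdk anti-PD1 tumours. The endothelial level ran from 299 to 515 and from 518 to 1238. The summed melanocyte level ran from 140894 to 190800 in shCtrl and from 114270 to 150113 in shMdk anti-PD1 tumours. Under IgG2a it ran from 158139 to 192475 in shCtrl and from 132174 to 153324 in shMdk tumours, without overlap. By value 8 melanocyte markers were lower and 2 higher in shMdk tumours under anti-PD1 (median log2 fold change -0.23, against -0.02 over all genes). Under IgG2a 8 were lower and 2 higher too (median -0.20, against -0.01). The part of this cell content in the lower ribosomal protein levels was not tested. In bulk tumours, fewer cells of a type and less RNA per cell cannot be told apart.

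Tumour by tumour, 68, 85, 75 and 71 of the 93 members were below their own median over all tumours in shMdk anti-PD1 tumours 1 to 4. In shCtrl IgG2a tumours the numbers were 30, 12, 46 and 38, under anti-PD1 the same line had 39, 42, 45 and 10, and shMdk IgG2a had 63, 35, 44 and 41. The shMdk anti-PD1 tumours thus had more low members than any other tumour. For 63 members (67.7%) the lowest of the 4 group means was that of shMdk anti-PD1, as for 29.8% of all genes tested. For 53 members (57.0%) shCtrl IgG2a had the highest mean, as for 24.3% of all genes. Its tumours 1 and 2, with shares of 11.9% and 13.2%, are among the 5 libraries with a positive GC slope, while tumours 3 and 4, at 10.5% and 10.6%, lay in the range of shCtrl anti-PD1. In a count added after seeing the data, without the 5 libraries, shCtrl IgG2a was highest for 38 members (40.9%, against 30.3% of all genes) and shMdk anti-PD1 lowest for 67 (72.0%, against 29.5%). By single library, shCtrl IgG2a 2 was the highest tumour for 41 members, and shMdk anti-PD1 2 the lowest for 30.

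**Figure D2:**
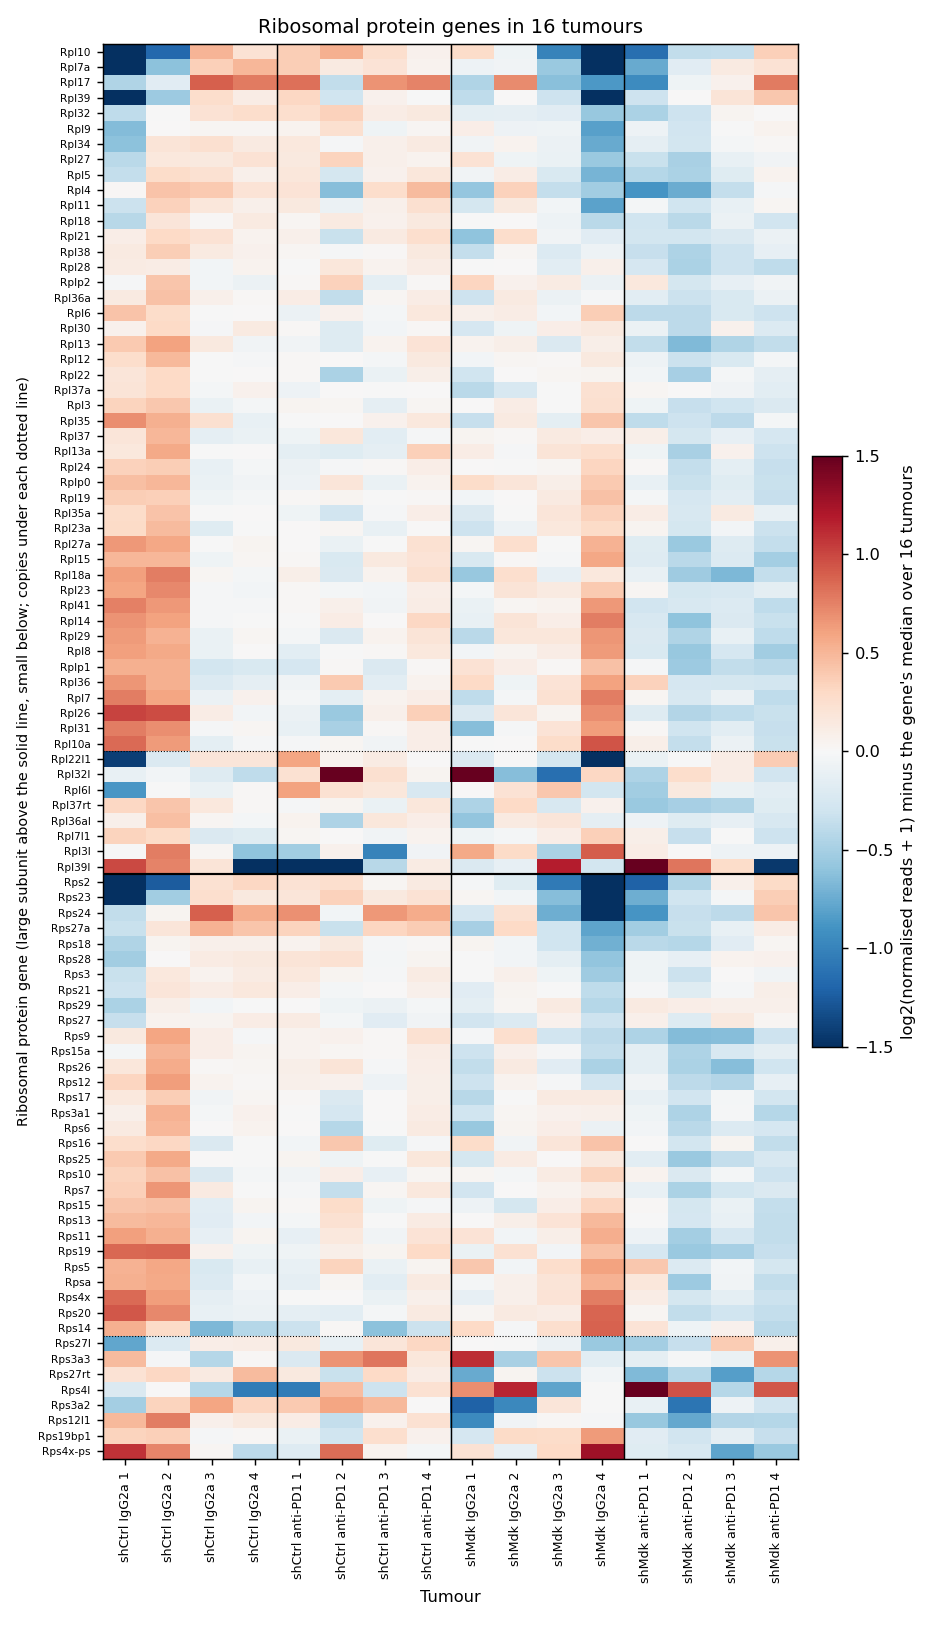
Level of 92 of the members (rows) in 16 tumours (columns), as log2(normalised reads + 1) minus the gene's median over the tumours, with colours capped at 1.5 in either direction. Most rows are blue in the shMdk anti-PD1 columns, and the top rows of each subunit, led by Rpl10 and Rps2, are dark blue in the 5 libraries with a positive GC slope.

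The effect of the hairpin under anti-PD1 was the comparison in which members passed the test. Of the 93 members, all of which passed the expression filter, 2 fell in shMdk against shCtrl tumours and 0 rose (limma, adjusted p under 0.05). In that comparison 5.93% of all genes were called, with 0.995% called lower and 4.93% higher. By value, 85 members were lower and 8 higher, where 52.2% of all genes were lower. The median log2 fold change of the members was -0.23, or 85.2% of control, against -0.02 over all genes. The core genes of the large and small subunit had medians of -0.24 and -0.22. With libraries scaled to their total reads, the members' median was -0.15 and that of all genes 0.06.

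Rpl28, a large subunit protein, was the member with the smallest residual spread. It had 5455, 6203, 5682 and 5952 normalised reads in shCtrl anti-PD1 tumours and 4629, 3949, 4440 and 4219 in shMdk anti-PD1 tumours. Every shMdk anti-PD1 value lay below every other tumour, since shCtrl IgG2a held 6003, 5947, 5332 and 5690 and shMdk IgG2a 5490, 5497, 4930 and 5791. Under anti-PD1 the mean was 5823 ± 325 in shCtrl and 4309 ± 293 in shMdk tumours (SD, n = 4), a change of -0.43 ± 0.11 in log2 units (SE; limma adjusted p = 0.0219). The gene (ENSMUSG00000030432.12) lies on chromosome 7, 4792874 to 4795066, plus strand, in GRCm38. The exact permutation test gave p = 0.0286, two-sided, the smallest that 4 against 4 tumours allow. The call was lost without shCtrl anti-PD1 4 (adjusted p = 0.0640) or without shMdk anti-PD1 2 (0.0769) or 4 (0.0556).

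Rps9, a small subunit protein near the site where the message enters, also fell. It had 14624, 14725, 14288 and 16519 normalised reads in shCtrl anti-PD1 tumours and 10226, 8984, 9038 and 11375 in shMdk anti-PD1 tumours. These groups did not overlap, but shMdk IgG2a, at 13968, 16838, 11602 and 10748, reached into the lower range, and shCtrl IgG2a held 15590, 21357, 15143 and 13930. The mean was 15039 ± 1004 in shCtrl and 9906 ± 1135 in shMdk tumours (SD, n = 4), a change of -0.61 ± 0.17 in log2 units (SE; limma adjusted p = 0.0384, exact permutation p = 0.0286). Rps9 (ENSMUSG00000006333.14) lies on chromosome 7 at 3703993 to 3706897, plus strand, in GRCm38. Its call was lost without any one of the 4 shCtrl anti-PD1 tumours (adjusted p = 0.0595 to 0.119) and without shMdk anti-PD1 1, 2 or 3 (0.0910 to 0.113). It was also lost with library-total scaling (0.0793), with scaling to reads outside the members (0.0779), without a trend (0.0546) and without the 2 libraries high in Gm42418 (0.0605).

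With Rpl28 and Rps9 included, 18 members had an unadjusted p under 0.05 and all 18 were lower, where 6.79% of all genes were lower at that p. In 25 members, again including Rpl28 and Rps9, every shMdk anti-PD1 tumour lay below every shCtrl anti-PD1 tumour. In 1, Rps29, every one lay above. Over all genes the shares were 5.20% and 8.23%. Rpl13 had the third smallest p (-0.47 ± 0.15, adjusted p = 0.0927). The copies Rps27rt (-0.64 ± 0.22, adjusted p = 0.108) and Rps12l1 (-0.56 ± 0.22, adjusted p = 0.161) missed the threshold too. Rpl13, Rps27rt, Rps12l1 and Rps29 were named here after their values were seen. The other members higher by value were Rpl35a, Rps27, Rpl39, Rps14 and the copies Rpl3l, Rps4l and Rpl39l. Rps4l, a copy of the X-linked Rps4x, had 10.1 ± 4.60 normalised reads in shCtrl and 23.3 ± 14.5 in shMdk anti-PD1 tumours (1.01 ± 0.52, limma adjusted p = 0.333), few reads in all.

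**Figure D3:**
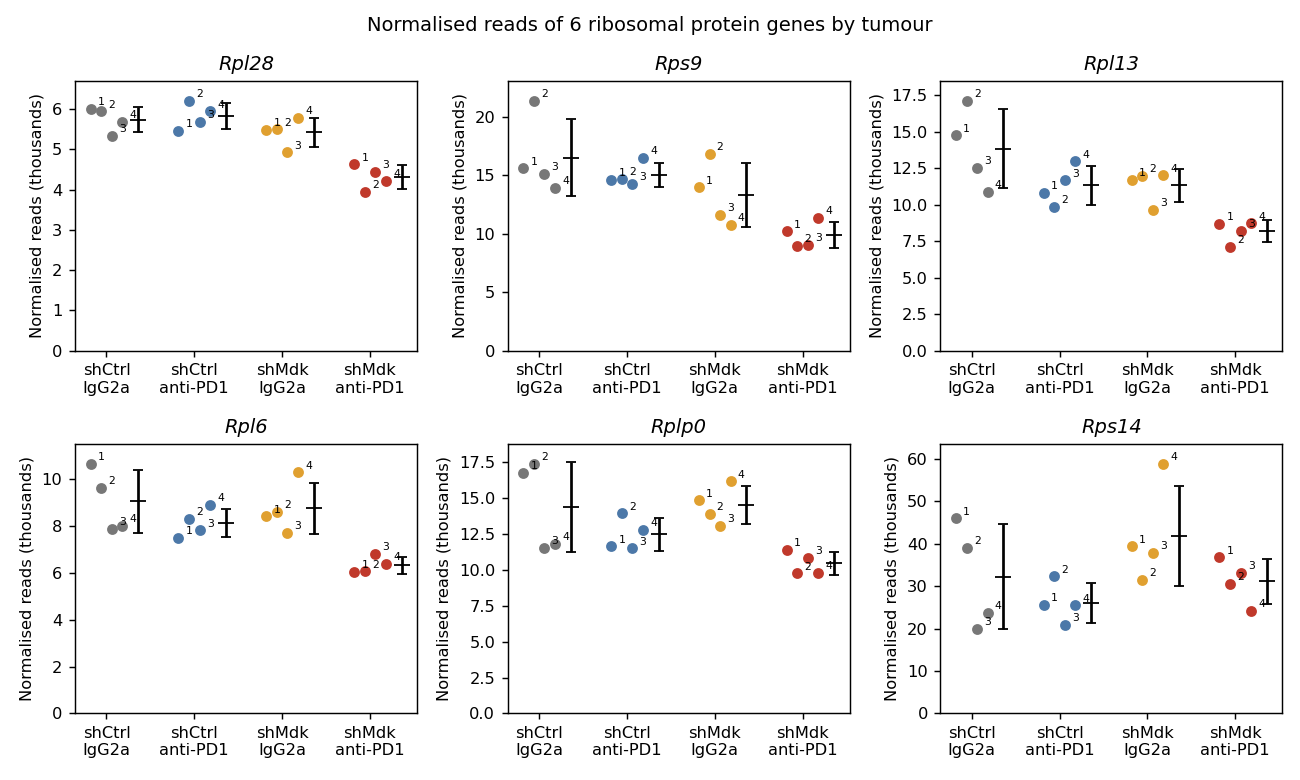
Normalised reads (in units of 1000, vertical axis from 0) of 6 members in the 4 groups. Points are tumours labelled by number and bars the mean ± SD of 4; in Rpl28 the shMdk anti-PD1 points, 3949 to 4629 reads, lie below all others, while in Rps14 the groups overlap.

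Core genes of a fixed set, chosen for their roles, differed in how far they went. Under anti-PD1, Rps19, a small subunit protein mutated in Diamond-Blackfan anaemia, stood at -0.50 ± 0.20 in log2 units (adjusted p = 0.188) in shMdk against shCtrl. Rpl41, the smallest ribosomal protein, had -0.32 ± 0.19, and Rpl5 and Rpl11, which bind MDM2 when ribosome assembly is disturbed, had -0.29 ± 0.19 and -0.19 ± 0.19. For the stalk genes the values were -0.25 ± 0.15 for Rplp0, -0.22 ± 0.21 for Rplp1 and -0.13 ± 0.16 for Rplp2. Rpl3, near the peptidyl transferase centre, had -0.22 ± 0.14 and Rpl13a had -0.17 ± 0.16. In the small subunit Rps3 had -0.19 ± 0.15, Rpsa, also known as the laminin receptor, -0.17 ± 0.20, and Rps6, the target of the S6 kinases, -0.15 ± 0.17. Rps14, the most abundant small subunit gene, was higher by value at 0.26 ± 0.26. None of these 13 comparisons passed the test, and the smallest adjusted p among them was that of Rps19. Rpl10, also of the fixed set, did not pass either. Its mean was 1125 ± 155 in shCtrl and 742 ± 307 in shMdk anti-PD1 tumours (SD, n = 4), and its values are given with the most variable members.

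For anti-PD1 against IgG2a in shMdk tumours, most members were lower by value and limma made no call. Of 93 members 0 passed (limma), where 0.0341% of all genes were called, 0.00682% lower and 0.0273% higher. The edgeR test also called 0 members, where it called 0.0545% of all genes in either direction and 0.00682% lower. DESeq2 called 2 members lower, Rpl6 and Rpl28, where it called 1.70% of all genes in either direction and 0.540% lower. By value 69 were lower and 24 higher (46.8% of all genes were lower), with a median of -0.21 against 0.03 over all genes. An unadjusted p under 0.05 was reached by 21 members, all lower, where 5.91% of all genes were lower at that p. In 15 members the groups did not overlap, all lower, where 4.10% of all genes were lower and 4.42% higher without overlap.

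The member with the smallest p in that comparison was Rpl6, a large subunit protein. It had 8430, 8622, 7730 and 10304 normalised reads in shMdk IgG2a and 6051, 6074, 6811 and 6402 in shMdk anti-PD1 tumours. No values overlapped, and the log2 fold change was -0.46 ± 0.13 (SE, limma adjusted p = 0.210). Next were Rpl28 (-0.33 ± 0.11), Rpl8 (-0.58 ± 0.19), Rplp0 (-0.47 ± 0.15) and Rpl13 (-0.47 ± 0.15), each with an adjusted p of 0.253. Rplp0, the stalk base often used as a reference gene in PCR, had 14846, 13925, 13080 and 16187 reads under IgG2a and 11422, 9761, 10830 and 9793 under anti-PD1. Its groups in shCtrl tumours overlapped, at 11526 to 17407 and 11498 to 13961. This comparison shares the shMdk anti-PD1 tumours with the one above, so the same 4 tumours enter both.

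Anti-PD1 in shCtrl tumours gave 0 calls among the members by limma, edgeR and DESeq2. Of all genes limma and edgeR called 0%, and DESeq2 called 0.0479%, with 0% lower. By value 66 members were lower and 27 higher (48.7% of all genes were lower), with a median of -0.15 against 0.01 over all genes. The median was -0.07 without shCtrl IgG2a 2 and -0.23 without shCtrl IgG2a 3. Of the members 1, Rpl26, had an unadjusted p under 0.05, where 3.79% of all genes did and 1.89% were lower. No member was lower without overlap (1.13% of all genes) and 1 was higher, the low copy Rpl32l (0.981%). Rpl26, a large subunit protein that also binds p53 messenger RNA, stood at -0.57 ± 0.25 in log2 units (limma adjusted p = 0.798). It held 13226, 12863, 7081 and 6376 reads in shCtrl IgG2a and 6185, 4457, 6899 and 8359 in shCtrl anti-PD1 tumours, so the higher IgG2a mean rests on tumours 1 and 2. These are 2 of the 5 libraries with a positive GC slope, and without the 5 the members' median was 0.01, with 44 lower and 48 higher. Rps7, Rpl31 and Rpl13 had log2 fold changes of -0.33, -0.49 and -0.27, all with an adjusted p of 0.798.

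The hairpin under IgG2a also gave 0 calls among the members by limma, edgeR and DESeq2, where limma called 1.74% of all genes, 0.109% lower and 1.63% higher. The share of all genes called was 1.71% for edgeR and 3.07% for DESeq2, with 0.0954% and 0.403% called lower. By value 74 members were lower and 19 higher (51.6% of all genes were lower), with a median of -0.15 against -0.01. The median was -0.08 without shCtrl IgG2a 2 and -0.10 without shMdk IgG2a 1. An unadjusted p under 0.05 was reached by 8 members, all lower, where 9.69% of all genes reached that p and 3.46% were lower. The groups did not overlap in 3 members, Rpl38, Rps12l1 and Rps27rt, all lower, where 1.93% of all genes were lower and 4.16% higher without overlap. Of the 16 copies 10 were higher by value, with a median of 0.04. Rpl38, a large subunit protein needed for the translation of Hox messages, had 7714, 9026, 7684 and 7314 reads in shCtrl IgG2a and 5473, 7135, 6090 and 6633 in shMdk IgG2a tumours (-0.33 ± 0.12, SE, limma adjusted p = 0.311). Rps12l1, a copy of Rps12, had the smallest p (-0.62 ± 0.22, adjusted p = 0.237), and Rps26 and Rps12 itself had -0.42 ± 0.17 and -0.40 ± 0.16.

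Whether anti-PD1 acted differently in the lines was tested by the difference of its effects. Of the members 0 passed by limma, edgeR or DESeq2 (0% of all genes by each), and 1 had an unadjusted p under 0.05, where 3.45% of all genes did and 1.10% were below 0. That member was Rpl28, whose anti-PD1 effect was 0.02 ± 0.11 in shCtrl and -0.33 ± 0.11 in shMdk tumours, a difference of -0.35 ± 0.15 (limma adjusted p = 0.9998). Rpl6, Rpl6l, Rpl14 and Rps4x-ps followed with differences of -0.32 ± 0.19, -0.68 ± 0.41, -0.37 ± 0.28 and -0.66 ± 0.50. The members' median difference was -0.08, with 63 below 0 and 30 above (49.4% of all genes were below 0). Without the 5 libraries it was -0.24.

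**Figure D4:**
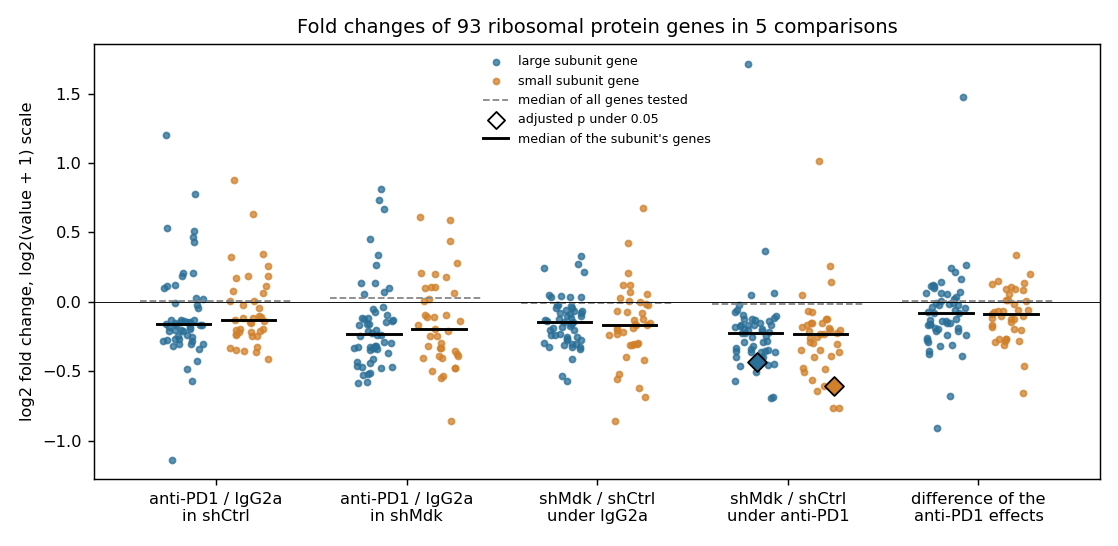
Log2 fold change (log2(value + 1) scale) of each member in 5 comparisons, large subunit in blue and small in orange. Black bars are the medians of each subunit, dashed lines the median of all genes tested, and diamonds mark the 2 members with an adjusted p under 0.05, Rpl28 and Rps9 under anti-PD1.

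The members did not vary as a block. The residual SD of log2 values within groups ran from 0.09 (Rpl28) to 1.31 (Rpl10) over the core genes, with a median of 0.23. The most variable members were Rpl10, Rpl39l, Rps2, Rpl32l and Rps4l, of which Rpl39l, Rpl32l and Rps4l have few reads. Rpl10, a large subunit protein joined late in assembly, had 104, 397.5, 1284 and 1049 reads in shCtrl IgG2a tumours and 1163, 1314, 1078 and 944 in shCtrl anti-PD1 tumours. It had 1098, 866, 449 and 56.8 in shMdk IgG2a and 411, 701, 703 and 1154 in shMdk anti-PD1 tumours. The 5 lowest values were those of the 5 libraries with a positive GC slope, at 56.8 to 449 reads against 701 to 1314 in the other 11.

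Rps2, near the entry of the message in the small subunit, had 551 to 1475 reads in the 5 libraries and 2259 to 3837 in the other 11. Rpl7a had 2508 to 5489 against 7177 to 11462, and Rps23, a protein of the decoding site, 580 to 1392 against 1625 to 2580. These 4 members were lower in all 5 libraries than in any other, as were 4.57% of all genes, and Rpl23a, Rpl7l1, Rps4x and Rpsa were higher in all 5, as were 2.09%. The mean log2 level was lower by over 0.5 in the 5 libraries for 10 members (17.5% of all genes) and higher by over 0.5 for 12 (13.0%). The median over members was 0.23 higher there, against 0.03 over all genes.

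GC content did not part the members cleanly. The median GC content of the last 300 bases was 43.9% in the 10 low members, 49.0% in the 12 high members and 48.0% in the 71 between, against 43.5% over all genes. Rps20 was high there with 35.7% GC, and Rps2 low with 48.0%. The cause of these differences was not tested. The libraries fall in 3 of the 4 groups, 2 in shCtrl IgG2a, 2 in shMdk IgG2a and 1 in shMdk anti-PD1, so members of this kind had a wide spread in those groups.

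**Figure D5:**
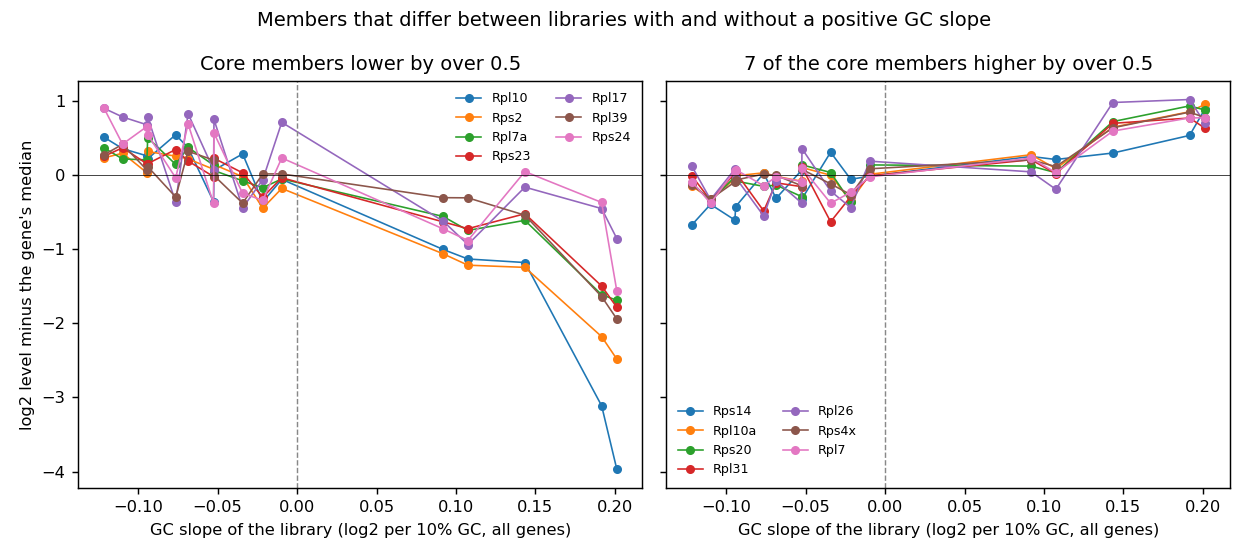
Level of 14 core members (log2, minus the gene's median) against the GC slope of the library, one point per tumour. The slope is in log2 units per 10% GC over all genes, relative to each gene's mean over the tumours. Left, the 7 core members lower by over 0.5 in the 5 libraries right of the dashed line; right, 7 of the core members that were higher; the lines join tumours in order of slope and Rpl10 reaches the lowest level.

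Without the 5 libraries 3 members fell in shMdk against shCtrl tumours under anti-PD1, namely Rpl28, Rps9 and Rps19, and the median was -0.27. Of all genes 4.23% were then called, and 0.892% called lower. The groups then held 3 shMdk and 4 shCtrl tumours, and 39 members were lower and 1 higher without overlap, against 6.94% and 9.44% of all genes. The median for anti-PD1 in shMdk tumours was -0.20, and that for the hairpin under IgG2a -0.09. Of the 5 libraries, only shMdk anti-PD1 1 enters the hairpin comparison under anti-PD1. Its share of reads in the members, 10.04%, was the highest of its group. Leaving it out thus lowers the group in any case, and the median of -0.27 does not speak to the role of the libraries. Their part in the lower level of the members was not tested. For anti-PD1 in shCtrl tumours the median was 0.01 without the 5 libraries, in a comparison left with 2 shCtrl IgG2a tumours. The shMdk IgG2a group also kept 2 tumours.

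Other genes of protein synthesis were given from lists chosen, like the members, with earlier results known. In shMdk against shCtrl tumours under anti-PD1, 52.2% of all genes were lower by value, 0.995% were called lower and the median was -0.02. Of 14 elongation and associated factors, 0 passed in any comparison, and under anti-PD1 all 14 were lower by value in shMdk tumours (median -0.29). Eef1e1 had the smallest p, at -0.77 ± 0.32. Rack1, a protein of the small subunit, had -0.32 ± 0.14 (adjusted p = 0.211), Eef2, which moves the ribosome along, -0.32 ± 0.20, and Eef1a1, which delivers transfer RNA, -0.54 ± 0.43. Fau had -0.12 ± 0.12. Of 33 initiation factors, 30 were lower by value (median -0.18) and 1, Eif3j1, fell (-0.69 ± 0.19, adjusted p = 0.0359).

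Of 50 nucleolar assembly factors, 46 were lower by value under anti-PD1 (median -0.30), where 52.2% of all genes were lower (median -0.02). Of the 50 factors 1 fell, the RNA helicase gene Ddx21 (-0.53 ± 0.14, adjusted p = 0.0359), where 0.995% of all genes were called lower. Npm1, Ncl and Fbl, abundant nucleolar proteins, had -0.56 ± 0.21, -0.40 ± 0.21 and -0.23 ± 0.17. The RNA polymerase I list had 9 of 14 lower (median -0.09) and 0 calls, with the smallest p for the subunit genes Polr1e (-0.66 ± 0.22) and Twistnb (-0.32 ± 0.13). The mitochondrial ribosomal proteins, which build a separate ribosome, had 68 of 78 lower (median -0.18), and 2 fell, Mrpl20 (-0.80 ± 0.14, adjusted p = 0.00194) and Mrpl52 (-0.65 ± 0.15, adjusted p = 0.0144). The snoRNA host genes, whose starts also carry TOP motifs, had 7 of 9 higher by value (median 0.27) and 0 calls, with the smallest p for Snhg6 (-1.39 ± 0.54), which was lower, and Epb41l4aos (0.53 ± 0.32). None of these lists had a call in the other 4 comparisons.

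Regulators of ribosomal protein synthesis had 2 of 19 lower calls in shMdk against shCtrl tumours under anti-PD1, where 0.995% of all genes were called lower. The list median was 0.01, against -0.02 over all genes. Myc, at 74.9 ± 18.8 normalised reads in shCtrl and 26.0 ± 10.7 in shMdk tumours (SD, n = 4), fell by 1.54 ± 0.41 on the log2 scale (SE; limma adjusted p = 0.0323). Its level under IgG2a was 74.8 ± 41.9 in shCtrl and 27.1 ± 10.4 in shMdk tumours (-1.31 ± 0.41, limma adjusted p = 0.163). Rps6kb1, which encodes an S6 kinase, fell by 0.40 ± 0.10 on the log2 scale (adjusted p = 0.0287), and Mtor had -0.11 ± 0.17.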

How the data were processed

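Each value of the deposited table is a normalised signal: the authors divided a gene's read count in a tumour by the size factor of that library, as DESeq2 defines it. The submitters' processing notes name build GRCm38, HTSeq and DESeq2, with Bowtie 1.0.0 and TopHat2 2.0.10 beside SAMtools 0.1.19 and FastQC 0.11.0. Libraries were stranded 3′ end libraries from 500 ng of RNA, per the labels. Whole reads were recovered from 100% of values (tolerance 0.001), and columns left unused numbered 0.

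limma 3.58.1 in R 4.3.3 was fitted to log2(value + 1) for all 16 tumours with group means (12 residual degrees of freedom), on 14672 genes with a mean of at least 5, and adjusted p-values are Benjamini-Hochberg over all of them. Fold changes on this scale understate those of low genes. Alternatives included edgeR 4.0.16 and DESeq2 1.42.0. The fit was tested on simulated data. GC content and positions came from GENCODE for GRCm38, and start windows from RefSeq.

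Members, lists, settings and the rule for named genes were chosen with earlier results of these data known. The rule took called members, else the 5 with the smallest p, a fixed set of core genes and paralogues, and the 3 most and least abundant per subunit. It added the 5 with the largest residual SD and fixed or leading genes of each list. The name Rpl10l had no row. No pair of tumours within a group matched to counting error (chi-square per degree of freedom at least 8.14). Some results for single genes are not reported here.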

Additional observations from a re-analysis of the deposited data

Results flagged for a closer look

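In 8 of 140 groups of 4 tumours tested, 1 tumour stood apart from the other 3 by Dixon's 95% limit, where chance gives about 7. For Rps12, shCtrl anti-PD1 3 was at 20634 normalised reads and the others at 22734 to 22983. For Rpl13, shMdk IgG2a 3 was at 9667 and the others at 11684 to 12019. The share of reads in large subunit genes was 4.81% in shMdk anti-PD1 2 and 5.34% to 5.44% in the others. The rest were copies with few reads: Rpl6l at 13.5 in shCtrl IgG2a 1 (others 23.8 to 25.8), Rpl32l at 84.1 in shCtrl anti-PD1 2 (others 22.5 to 26.0), and Rpl39l at 10.4 in shMdk IgG2a 3 (others 3.15 to 3.64). Rps12l1 was at 170 in shMdk IgG2a 1 (others 318 to 334), and Rps3a3 was at 19.5 in shMdk anti-PD1 4 (others 10.7 to 11.8).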

How the results depend on the processing

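For shMdk against shCtrl under anti-PD1, the count of 2 called members was 1 without a trend on expression, with library-total scaling and with scaling to reads outside the members. It was 6 with DESeq2 (Rpl13, Rpl28, Rpl38, Rpl6, Rps27rt and Rps9), 4 without the 2 libraries high in Gm42418 (Rpl28, Rpl4, Rps12l1 and Rps27rt), 3 in a fit of the 2 groups alone, and 0 to 2 when leaving out 1 tumour. It was 0 without shCtrl anti-PD1 4 or shMdk anti-PD1 2, where 0.367% and 0.560% of all genes were called lower. Over the fits leaving out 1 tumour, 0.335% to 1.26% of all genes were called lower. Calls over all genes moved too: 0.995% were lower as reported, 2.38% with DESeq2, 1.58% without the Gm42418 libraries, 0.947% in the fit of the 2 groups, 0.763% without a trend and 0.518% and 0.538% under the other scalings. The median stayed between -0.27 and -0.15 over all alternatives. Under library-total scaling it was -0.15 while that of all genes was 0.06. For anti-PD1 in shMdk tumours DESeq2 called 2 members lower, and 0.540% of all genes. Without the 5 libraries with a positive GC slope, the median was 0.0093 for anti-PD1 in shCtrl tumours and -0.24 for the difference; leaving out 1 tumour gave -0.23 to -0.07 and -0.16 to -0.03, and -0.19 to -0.08 for the hairpin under IgG2a. With Gm42418 and mitochondrial genes out of the total, the shares were 11.4% in shCtrl anti-PD1, 11.6% in shMdk IgG2a and 10.2% in shMdk anti-PD1, and the total without haemoglobin genes was added after seeing the data. The cause of these shifts was not tested. No called result changed direction. No paired analysis was possible because the labels give no replicate numbers. Each group has 4 tumours, which limits what can be called.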
